A study of Homo sapiens with 54 samples.

Results

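The snoRNA host noncoding transcripts GAS5, ZFAS1, SNHG1, SNHG5, SNHG6, SNHG7, SNHG8, SNHG12, SNHG15 and EPB41L4A-AS1 were followed through the transcriptome of MDA-MB-231 cells given Compound Kushen Injection (CKI) or mixtures made from it. They were taken by name, 10 of the 27978 genes counted. MDA-MB-231 is an established human breast cancer line, and CKI is a natural compound mixture prepared from medicinal plants. RNA-seq libraries came from 18 groups of 3 biological replicates. In batch 1, cells were sampled after 24 or 48 h without treatment (untreated), with CKI at 2 mg/ml, or with 1 of 4 mixtures at a dose equivalent to it. N-OmtOspc was CKI from which Omt and Ospc had been taken out, and N-MacOmtOspc lacked Mac as well. OO held only Omt and Ospc, and MOO held only Mac, Omt and Ospc. In batch 2, sampled at 48 h, untreated and CKI-treated cells were joined by N_Mac, N_Nme, N_Omt and N_Tri, which were CKI without the single compound named. All 10 transcripts had enough counts to be tested in every comparison.

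Host genes of this kind are read into a long RNA whose introns hold small nucleolar RNAs (snoRNAs). The snoRNA is trimmed out of the excised intron and joins a protein complex that guides ribose methylation (box C/D snoRNAs) or pseudouridylation (box H/ACA snoRNAs) of ribosomal RNA. The exons are spliced, exported and polyadenylated, and hold only short reading frames. Many such RNAs begin with a run of pyrimidines, as the mRNAs of ribosomal proteins do, and are degraded by nonsense-mediated decay when ribosomes read them, so that their level can rise when translation stops. GAS5 was first described as a transcript that accumulates in growth-arrested cells.

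The start sites of the hosts are shown because a pyrimidine run at the start is the feature that such host genes are known to share with ribosomal protein genes. Each line holds 90 bases from the RefSeq promoter table (build GRCh38.p14), 50 before the annotated start and 40 from it, on the transcribed strand. Capitals mark TATAA where its first base lay 40 to 20 bases before the start, and a run of at least 5 bases made only of C and T that opened with C within 5 bases of the start. SNHG6 and SNHG15 are named only.
GAS5 (chr1:173869006-173869095, minus strand): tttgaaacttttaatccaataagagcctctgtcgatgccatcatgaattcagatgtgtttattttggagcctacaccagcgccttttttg
SNHG1 (chr11:62855846-62855935, minus strand): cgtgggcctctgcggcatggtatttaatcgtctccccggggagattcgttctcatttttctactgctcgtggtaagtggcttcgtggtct
SNHG5 (chr6:85678694-85678783, minus strand): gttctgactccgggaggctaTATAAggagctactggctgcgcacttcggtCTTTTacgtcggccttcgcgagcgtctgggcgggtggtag
SNHG7 (chr9:136728145-136728234, minus strand): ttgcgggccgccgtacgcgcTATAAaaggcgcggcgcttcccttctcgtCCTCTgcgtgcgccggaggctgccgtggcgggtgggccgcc
SNHG8 (chr4:118278712-118278801, plus strand): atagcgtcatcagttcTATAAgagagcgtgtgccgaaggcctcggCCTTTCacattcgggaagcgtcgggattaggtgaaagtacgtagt
SNHG12 (chr1:28581834-28581923, minus strand): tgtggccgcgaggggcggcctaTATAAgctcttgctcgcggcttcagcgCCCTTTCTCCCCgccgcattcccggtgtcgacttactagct
ZFAS1 (chr20:49278592-49278681, plus strand): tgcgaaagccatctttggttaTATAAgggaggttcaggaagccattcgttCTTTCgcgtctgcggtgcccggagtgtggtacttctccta
EPB41L4A-AS1 (chr5:112160476-112160565, plus strand): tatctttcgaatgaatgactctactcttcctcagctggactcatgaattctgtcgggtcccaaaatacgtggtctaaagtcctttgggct
TATAA was at this place in 5 of the 8 hosts read (SNHG5, SNHG7, SNHG8, SNHG12 and ZFAS1), against 3.91% of 35116 promoters in the table, searched in the same way on the transcribed strand. The same 5 hosts held the pyrimidine run, against 21.1% of all promoters, and 0.832% of all promoters held both. In SNHG12 the run was 12 bases long. Neither was found in the windows of GAS5, SNHG1 and EPB41L4A-AS1. The start given for GAS5 lies outside the span of that gene in the GENCODE v29 annotation of GRCh38 (chr1:173863900-173868882, minus strand), so its window may not show the start that these cells use. CACGTG, which reads alike on both strands, was found in the 300 bases around the start of 1 host, SNHG7, and in 7.26% of all promoters. These matches describe the letters only.

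Total counts per library were between 17673537 and 26138924 (median 22568666.5). VIM and CD44, mesenchymal markers of the line, were at 489.6 to 1562 and 328 to 671 CPM (counts scaled to a fixed library size) in the 54 libraries, while ESR1, a receptor that this line lacks, did not exceed 0.333 CPM. Of the other markers read, EGFR was at 66.7 to 479 CPM and KRT18, a keratin, at 77.2 to 701 CPM. PGR did not exceed 0.0923 CPM, while CDH1 was low but reached 7.20 CPM (median 1.35). At 24 h, CKI replicate 1, OO replicate 2 and N-MacOmtOspc replicate 2, the 3 libraries of batch 1 described without a replicate number, stood apart. Over genes that differed between the untreated cells of batches 1 and 2 at 48 h, their deviation from their own group followed the batch difference with slopes of 0.607 to 0.676, against -0.43 to 0.15 for the other 33 libraries of batch 1. CKI replicate 1 was nearest in overall profile to CKI of batch 2, OO replicate 2 to untreated cells of batch 2, and N-MacOmtOspc replicate 2 to OO at 24 h. OO replicate 1 was nearest to MOO and MOO replicate 3 to OO, both at 24 h, and each other library was nearest to its own group. Results at 24 h are therefore also given without these 3 libraries. As the RNA was bulk, fewer cells of a kind and less RNA per cell cannot be told apart in any of the values that follow.

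The 10 transcripts together took 0.0654% ± 0.00384 (SD, n = 3) of all counts in untreated cells at 24 h, 0.0577% ± 0.00195 at 48 h in batch 1 and 0.0724% ± 0.00873 at 48 h in batch 2. With CKI the share was 0.0395% ± 0.00250, 0.0359% ± 0.00109 and 0.0323% ± 0.00127 in the same order. With the mixtures at 48 h it lay between 0.0978% ± 0.00424 (MOO) and 0.156% ± 0.00307 (N_Omt). At 24 h it was 0.0639% ± 0.0108 with OO and 0.0659% ± 0.00330 with MOO, next to the untreated share, but 0.0886% ± 0.0242 with N-OmtOspc and 0.134% ± 0.0293 with N-MacOmtOspc. The share was thus lowest in the 3 CKI groups and highest in groups from which compounds had been taken out.

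**Figure D1:**
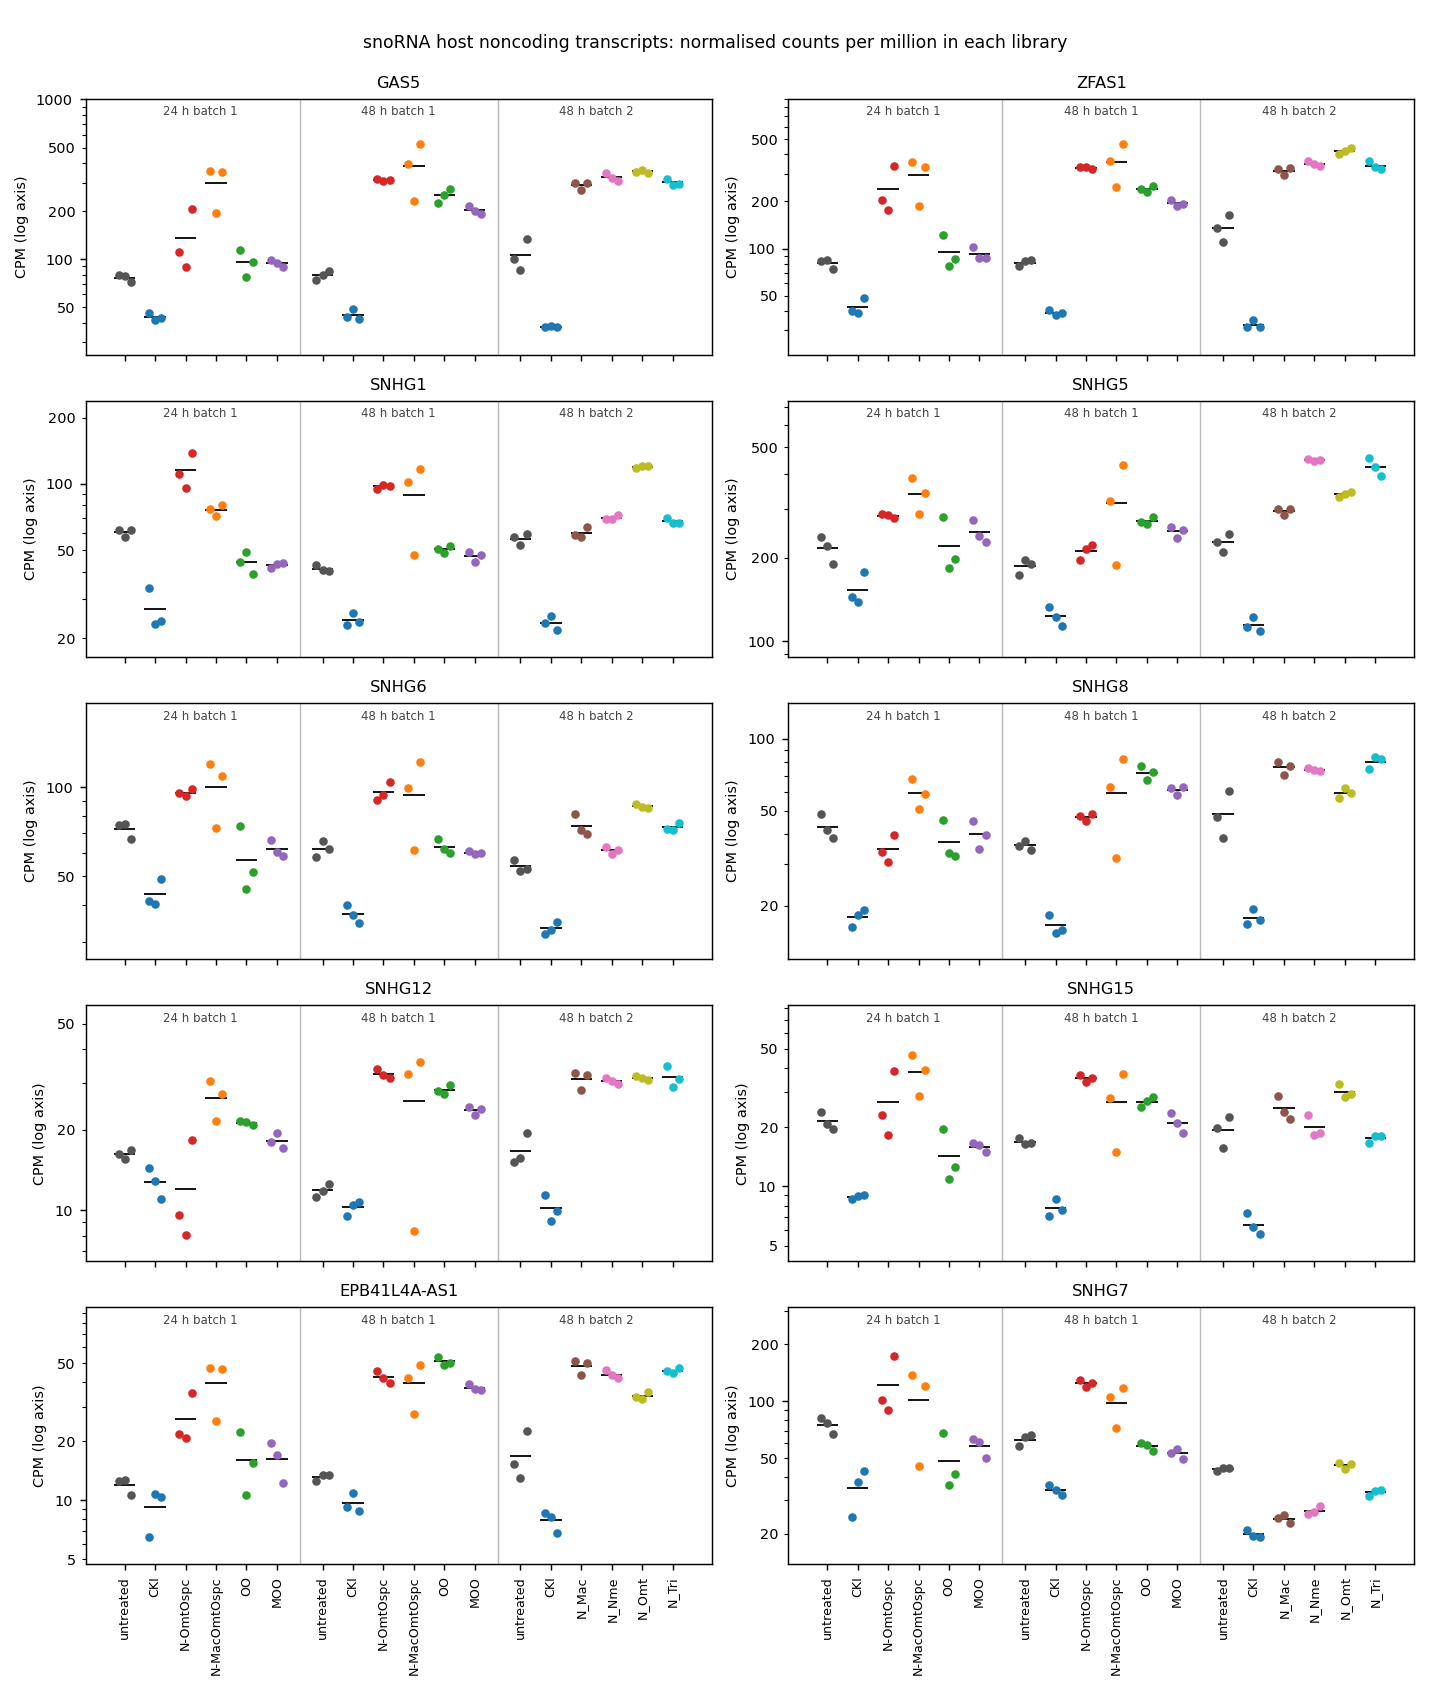
CPM of each transcript in every library (log axis, 1 panel per transcript, libraries in the order of their group and set). Points are libraries and bars are group means, and the 3 CKI groups are the lowest or among the lowest in most panels, with GAS5 at 37.6 CPM in CKI of batch 2 and 354 CPM in N_Omt.

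Most of the hosts were lower with CKI at both times and in both batches. Against untreated cells, 8 of the 10 transcripts fell after 24 h of CKI, 9 after 48 h in batch 1 and 10 after 48 h in batch 2, and none rose by the quasi-likelihood test of edgeR, at an adjusted p (Benjamini-Hochberg, over all genes tested) under 0.05. Of all genes tested, 14.8%, 27.0% and 34.2% were lower in these comparisons. The median log2 fold change of the 10 was -0.88, -0.79 and -1.20, where that of all genes tested was 0.02, 0.01 and -0.01.

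GAS5, which carries several box C/D snoRNAs in its introns, was at 79.7, 78.02 and 71.9 CPM in the 3 untreated libraries at 24 h and at 45.9, 41.6 and 42.5 CPM with CKI. At 48 h it was at 73.8, 79.6 and 83.6 CPM in untreated cells of batch 1 and at 43.4, 48.7 and 42.2 CPM with CKI. In batch 2 the values were 100.3, 85.2 and 134 CPM without and 37.2, 38.05 and 37.5 CPM with CKI. The groups did not overlap in any set. On the log2 scale GAS5 changed by -0.82 ± 0.26 (SE, adjusted p = 0.0226), -0.82 ± 0.17 (adjusted p = 0.000351) and -1.50 ± 0.09 (adjusted p = 4.74e-15), or 1.77-fold, 1.76-fold and 2.83-fold lower.

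ZFAS1, the host of the SNORD12 family that is transcribed antisense to ZNFX1, was at 82.99, 84.7 and 73.9 CPM in untreated cells and 39.9, 38.6 and 48.5 CPM with CKI at 24 h. In batch 1 at 48 h its values were 76.8, 83.3 and 83.9 CPM without and 40.4, 37.6 and 38.7 CPM with CKI. In batch 2 they were 135, 109 and 164 CPM and 31.6, 35.01 and 31.3 CPM. All CKI libraries lay below all untreated ones of their set. Whether strand was used in the counting is not known, so reads of ZNFX1 may be among those of ZFAS1. ZFAS1 had the largest fall in batch 2, 4.16-fold (log2 fold change -2.06 ± 0.09, adjusted p = 9.09e-19), against -0.93 ± 0.24 at 24 h (adjusted p = 0.00872) and -1.06 ± 0.13 at 48 h in batch 1 (adjusted p = 8.39e-07).

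SNHG1, the host of a row of box C/D snoRNAs from SNORD22 to SNORD31, was at 61.99, 57.3 and 61.7 CPM in untreated cells and 33.9, 23.2 and 23.97 CPM with CKI at 24 h. At 48 h it was at 43.00, 40.6 and 40.3 CPM against 23.01, 26.02 and 23.7 CPM in batch 1 and at 57.2, 52.8 and 59.3 CPM against 23.4, 25.1 and 21.7 CPM in batch 2. No CKI library reached the lowest untreated library of its set. Its log2 fold changes were -1.16 ± 0.15, -0.77 ± 0.19 and -1.27 ± 0.06. SNHG8, which carries the box H/ACA snoRNA SNORA24, changed by -1.26 ± 0.16, -1.11 ± 0.20 and -1.44 ± 0.10 on the log2 scale. SNHG15, the host of SNORA9, changed by -1.27 ± 0.25, -1.11 ± 0.20 and -1.59 ± 0.13. SNHG8 and SNHG15 were the only ones of the 10 whose log2 fold change was below -1 in each set. For SNHG5 (host of SNORD50A and SNORD50B) the changes were -0.50, -0.60 and -0.99. SNHG6 (host of SNORD87) gave -0.73, -0.73 and -0.69, close to one another in all 3 sets. SNHG7 (host of SNORA17A and SNORA17B) gave -1.12, -0.89 and -1.14. All of these passed the test in every set.

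SNHG12 and EPB41L4A-AS1 had the smallest changes in batch 1. SNHG12, which carries SNORA16A, SNORA44, SNORA61 and SNORD99, was at 16.2, 15.5 and 16.8 CPM in untreated cells and 14.4, 12.8 and 10.98 CPM with CKI at 24 h. These groups did not overlap, but the log2 fold change of -0.34 ± 0.22 did not pass the test (adjusted p = 0.253). At 48 h in batch 1 it was at 11.2, 11.8 and 12.5 CPM against 9.47, 10.5 and 10.8 CPM with CKI (-0.21 ± 0.29, adjusted p = 0.559). In batch 2 it fell from 15.2, 15.6 and 19.4 to 11.4, 9.11 and 9.93 CPM (-0.72 ± 0.10, adjusted p = 1.16e-07). EPB41L4A-AS1, the host of SNORA13, was at 12.5, 12.7 and 10.6 CPM against 6.53, 10.8 and 10.4 CPM at 24 h, and these groups overlapped (-0.37 ± 0.30, adjusted p = 0.373). It fell by 1.36-fold at 48 h in batch 1 (-0.44 ± 0.15, adjusted p = 0.0152) and by 2.14-fold in batch 2 (-1.10 ± 0.13). With both batches in 1 fit and batch as a term, all 10 transcripts fell at 48 h, by 0.46 (SNHG12) to 1.55 (ZFAS1) on the log2 scale, where 5142 of 14351 genes were lower. With libraries scaled by their totals alone, 5054 genes were higher and 3359 lower with CKI at 48 h in batch 1, rather than 4194 and 4183, and EPB41L4A-AS1 did not pass edgeR's test (-0.36, adjusted p = 0.0677), nor did it in a fit of all 54 libraries (-0.45, adjusted p = 0.103).

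At 24 h these calls rested on few libraries. Without the 3 libraries that stood apart, 8 of 10 transcripts fell again at 24 h, where 2502 of 15424 genes were lower. Without untreated replicate 1 or 2, 5 fell, and the calls lost were those of GAS5 (-0.80 and -0.81), SNHG5 (-0.43 and -0.49) and SNHG7 (-1.05 and -1.10), with the fold changes little moved. GAS5 also missed the threshold without CKI replicate 2 or 3, SNHG5 without CKI replicate 1 or 2 and SNHG7 without CKI replicate 1 (adjusted p from 0.0573 to 0.0947). EPB41L4A-AS1 missed it at 48 h in batch 1 without CKI replicate 3 (-0.39, adjusted p = 0.0619 from the same edgeR test).

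**Figure D2:**
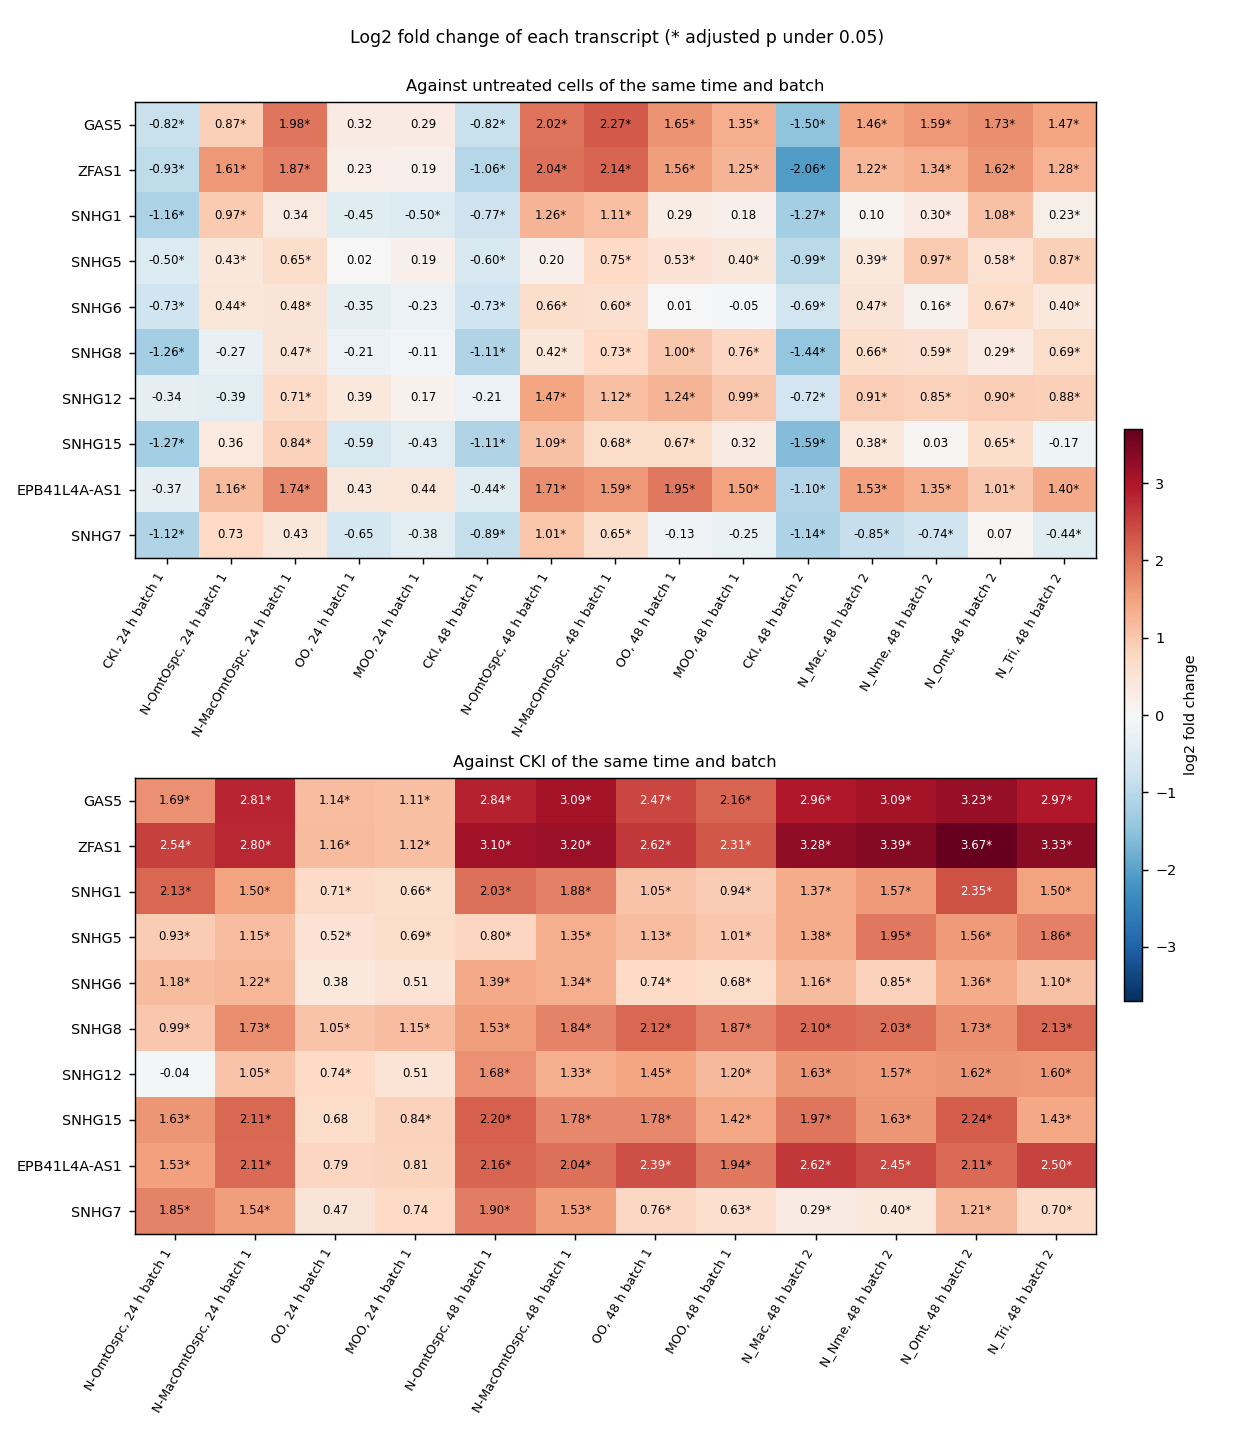
Log2 fold change of each transcript against untreated cells (upper panel) and against CKI (lower panel) of the same time and batch, with an asterisk for an adjusted p-value under 0.05. The 3 CKI columns of the upper panel hold only negative values, from -0.21 to -2.06, and the lower panel holds only positive values apart from -0.04 for SNHG12 in N-OmtOspc at 24 h.

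With Omt and Ospc taken out of CKI, the changes against untreated cells went the other way. After 24 h of N-OmtOspc, 6 transcripts were higher than in untreated cells and none lower, where 31.1% of all genes tested were higher. With N-MacOmtOspc, 8 were higher and none lower, against 23.2% of all genes. The median log2 fold changes of the 10 were 0.59 and 0.68, and those of all genes -0.01 and 0.03. The N-OmtOspc result depended on the scaling. With libraries scaled by their totals alone, which moved the median of all genes by -0.31, 3347 genes were higher and 6384 lower with N-OmtOspc, rather than 4731 and 4699. Then 3 of the 10 transcripts were higher and 2 lower, as GAS5 (0.58, adjusted p = 0.0571), SNHG5 (0.12, adjusted p = 0.429) and SNHG6 (0.14, adjusted p = 0.447) did not pass edgeR's test, and SNHG8 (-0.57, adjusted p = 0.00296) and SNHG12 (-0.68, adjusted p = 0.0211) fell.

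ZFAS1 was at 204, 177 and 335 CPM in the N-OmtOspc libraries and at 356, 188 and 334 CPM with N-MacOmtOspc, above the untreated values given before. ZFAS1 rose by 1.61 ± 0.25 on the log2 scale (adjusted p = 2.73e-05) and 1.87 ± 0.25 (adjusted p = 1.96e-05), or 3.05-fold and 3.65-fold. GAS5 was at 111, 89.5 and 207 CPM with N-OmtOspc and at 356, 196 and 353 CPM with N-MacOmtOspc, log2 fold changes of 0.87 ± 0.25 and 1.98 ± 0.26. Replicate 3 of N-OmtOspc was the highest of its group for both transcripts, and replicate 2 of N-MacOmtOspc, which stood apart, the lowest of its group. Without replicate 3 of N-OmtOspc the GAS5 value was 0.44 and did not pass the test (adjusted p = 0.0799). EPB41L4A-AS1 was at 21.8, 20.8 and 35.2 and at 46.95, 25.5 and 46.5 CPM with these mixtures, 2.24-fold and 3.34-fold above untreated cells. SNHG1 rose with N-OmtOspc (115 ± 21.8 CPM, 0.97 ± 0.15, adjusted p = 3.46e-05), while with N-MacOmtOspc it was at 76.2 ± 4.69 CPM and did not pass the test (0.34 ± 0.15, adjusted p = 0.0774).

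SNHG12, SNHG8 and SNHG15 rose with N-MacOmtOspc, by 0.71 ± 0.22, 0.47 ± 0.16 and 0.84 ± 0.24. With N-OmtOspc their values were -0.39 ± 0.22, -0.27 ± 0.16 and 0.36 ± 0.24, and none of the 3 passed the test. SNHG12 was at 9.57, 8.04 and 18.3 CPM in the N-OmtOspc libraries, so that replicates 1 and 2 lay below every untreated library and replicate 3 above. SNHG5 rose by 0.43 and 0.65 and SNHG6 by 0.44 and 0.48 with N-OmtOspc and N-MacOmtOspc. SNHG7 gave 0.73 ± 0.34 (adjusted p = 0.0721) and 0.43 ± 0.34 (adjusted p = 0.321). These smaller changes depended on single libraries. SNHG6 missed the threshold with N-OmtOspc whichever of the 6 libraries was left out (adjusted p from 0.0545 to 0.118), and with N-MacOmtOspc without any untreated library or replicate 1 or 3 (from 0.0649 to 0.176). SNHG5 missed it with N-OmtOspc without untreated replicate 2 or 3 or N-OmtOspc replicate 1 (from 0.0511 to 0.112), and SNHG8 with N-MacOmtOspc without untreated replicate 2 or 3 or N-MacOmtOspc replicate 1 or 3 (from 0.0511 to 0.109). Without N-MacOmtOspc replicate 1, 4 transcripts rather than 8 were called, as SNHG12 (0.59, adjusted p = 0.0631) and SNHG15 (0.67, adjusted p = 0.0538) were lost too. Without the 3 libraries that stood apart, all 10 rose with N-MacOmtOspc and 7 with N-OmtOspc. The added ones were SNHG1 and SNHG7 with the first (0.39 and 0.78) and SNHG7 with the second (0.72). More of all genes were higher there too, 4251 of 15424 with N-MacOmtOspc and 5315 with N-OmtOspc. In the fit with all libraries these were 3527 and 4731 of 15191.

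OO and MOO alone gave few calls against untreated cells at 24 h. With OO none of the 10 passed edgeR's test, 2 had an unadjusted p-value under 0.05 and DESeq2 called 1, while 16.7% of all genes tested were called in either direction. With MOO 1 transcript, SNHG1, was lower (41.7, 43.3 and 43.7 CPM, -0.50 ± 0.15, adjusted p = 0.0460), where 10.5% of all genes were called. That call was lost without any of the 6 libraries (adjusted p from 0.0885 to 0.141). SNHG1 with OO was at 44.4, 49.2 and 39.2 CPM, below every untreated library (-0.45 ± 0.15, adjusted p = 0.0523), and it passed the test when the 3 libraries that stood apart were left out (-0.54, adjusted p = 0.00712). The OO libraries differed among themselves, with ZFAS1 at 122, 77.6 and 85.7 CPM and EPB41L4A-AS1 at 22.2, 10.6 and 15.5 CPM, replicate 1 the highest in both. Without OO replicate 1, 2 transcripts were called, and without OO replicate 2, 1. Log2 fold changes of the 10 were between -0.65 (SNHG7) and 0.43 (EPB41L4A-AS1) with OO and between -0.50 (SNHG1) and 0.44 (EPB41L4A-AS1) with MOO. With only the MOO and untreated libraries in the fit, 5097 of 14249 genes were called. GAS5 (0.29) and EPB41L4A-AS1 (0.44) then also passed edgeR's test as higher. SNHG6 (-0.23), SNHG7 (-0.38) and SNHG15 (-0.43) passed it as lower (adjusted p of these 5 from 0.00542 to 0.0437). With only the OO and untreated libraries, SNHG1 (-0.45, adjusted p = 0.0361) and SNHG12 (0.39, adjusted p = 0.0447) passed, where 2338 of 14211 genes were called.

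After 48 h most of the hosts were higher than in untreated cells with every mixture of batch 1. N-OmtOspc raised 9, N-MacOmtOspc 10, OO 7 and MOO 6, and none fell, where 38.3%, 35.8%, 29.1% and 25.7% of all genes tested were higher. The medians of the 10 were 1.18, 0.93, 0.84 and 0.58 on the log2 scale, with the medians of all genes between 0.01 and 0.02. Scaling by library totals alone gave 5566 genes higher and 3490 lower with OO, rather than 4519 and 4451, and 4939 and 3229 with MOO, rather than 3989 and 3951, and left the numbers of hosts called as they were. GAS5, ZFAS1, EPB41L4A-AS1 and SNHG12 were among those raised by all 4 mixtures, together with SNHG8.

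GAS5 was at 319.7, 310.2 and 314 CPM with N-OmtOspc and at 392, 229 and 524 CPM with N-MacOmtOspc, where untreated cells had 73.8, 79.6 and 83.6 CPM. With OO it was at 226, 251 and 274 CPM and with MOO at 215, 199 and 192 CPM. All mixture libraries lay above the untreated ones, and the folds were 4.05, 4.83, 3.15 and 2.54 (log2 2.02 ± 0.17, 2.27 ± 0.17, 1.65 ± 0.17 and 1.35 ± 0.17). ZFAS1 was at 331, 333 and 323 CPM with N-OmtOspc, 365, 247 and 465 CPM with N-MacOmtOspc, 239, 231 and 252 CPM with OO and 205, 188 and 191 CPM with MOO. These were log2 fold changes of 2.04 ± 0.13, 2.14 ± 0.13, 1.56 ± 0.13 and 1.25 ± 0.13, again with no overlap with untreated cells. EPB41L4A-AS1 was at 13.2 ± 0.510 CPM in untreated cells (SD, n = 3) and at 42.4 ± 2.99, 39.5 ± 10.9, 50.95 ± 2.70 and 37.4 ± 1.38 CPM with the mixtures in the same order. Its rise of 3.85-fold was the largest that OO gave among the 10 (1.95 ± 0.13, adjusted p = 4.07e-11). SNHG12 was at 33.7, 32.2 and 31.4 CPM with N-OmtOspc, 28.03, 27.3 and 29.5 CPM with OO and 24.4, 22.7 and 23.9 CPM with MOO, against 11.2, 11.8 and 12.5 CPM in untreated cells. Its log2 fold changes were 1.47 ± 0.27, 1.24 ± 0.27 and 0.99 ± 0.27, and 1.12 ± 0.27 with N-MacOmtOspc.

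The remaining hosts split by mixture. SNHG1 rose with N-OmtOspc (1.26 ± 0.18) and N-MacOmtOspc (1.11 ± 0.18) but did not pass the test with OO (0.29 ± 0.18, adjusted p = 0.177) or MOO (0.18 ± 0.18, adjusted p = 0.428). SNHG7 was at 57.8, 64.5 and 66.2 CPM in untreated cells, 129, 119.6 and 126 CPM with N-OmtOspc (1.01 ± 0.11) and 53.3, 56.3 and 49.6 CPM with MOO (-0.25 ± 0.11, adjusted p = 0.0703). With N-MacOmtOspc it rose by 0.65 ± 0.11 and with OO it gave -0.13 ± 0.11 (adjusted p = 0.349). SNHG6 likewise passed with N-OmtOspc (0.66 ± 0.14) and N-MacOmtOspc (0.60 ± 0.14), and had 0.01 ± 0.14 with OO and -0.05 ± 0.14 with MOO. SNHG8 rose most with OO (77.2, 67.1 and 72.5 CPM, 1.00 ± 0.18) and by 0.42 ± 0.18, 0.73 ± 0.18 and 0.76 ± 0.18 with N-OmtOspc, N-MacOmtOspc and MOO. SNHG5 gave 0.20 with N-OmtOspc (adjusted p = 0.271) and rose by 0.75, 0.53 and 0.40 with the others. SNHG15 rose by 1.09, 0.68 and 0.67, and gave 0.32 with MOO (adjusted p = 0.158). For 2 transcripts the call was lost without any of the 6 libraries compared, for SNHG8 with N-OmtOspc (adjusted p from 0.0634 to 0.109) and for SNHG5 with MOO (from 0.0595 to 0.144).

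The N-MacOmtOspc libraries at 48 h were far apart. Replicate 2 was the lowest and replicate 3 the highest for all 10 transcripts, with SNHG12 at 32.4, 8.38 and 36.03 CPM and SNHG5 at 320.0, 189 and 433 CPM. Over the 10, replicate 2 lay at a median of -0.98 and replicate 3 at 0.78 on the log2 scale from the mean of the other libraries of the group. Replicate 2 lay within the range of untreated cells for SNHG5 and SNHG6 and below every untreated library for SNHG8, SNHG12 and SNHG15. Without replicate 3, SNHG5 (0.45), SNHG6 (0.38), SNHG8 (0.41) and SNHG15 (0.37) had smaller log2 fold changes against untreated cells and still passed the test.

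Each of the 4 single removals also gave higher levels of most hosts at 48 h in batch 2. N_Mac raised 8, N_Nme 8, N_Omt 9 and N_Tri 8 of the 10 transcripts, where 36.9%, 35.9%, 38.4% and 34.8% of all genes tested were higher. The medians of the 10 were 0.56, 0.72, 0.79 and 0.78. GAS5, ZFAS1, EPB41L4A-AS1, SNHG5, SNHG6, SNHG8 and SNHG12 rose with each of the 4.

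GAS5 was at 300.2, 271 and 301 CPM with N_Mac, 345, 321 and 308 CPM with N_Nme, 351, 364 and 348 CPM with N_Omt and 319, 291 and 296 CPM with N_Tri, where the untreated libraries held 100.3, 85.2 and 134 CPM. Its log2 fold changes were 1.46 ± 0.09, 1.59 ± 0.09, 1.73 ± 0.09 and 1.47 ± 0.09. ZFAS1 was at 323, 294 and 325 CPM with N_Mac, 363, 348 and 335 CPM with N_Nme and 362, 331 and 321 CPM with N_Tri, all above the highest untreated library of the batch. It reached 399.9, 417 and 436 CPM with N_Omt, 3.07-fold above untreated cells, and 2.33-fold, 2.53-fold and 2.42-fold with N_Mac, N_Nme and N_Tri. EPB41L4A-AS1 was at 16.9 ± 4.98 CPM in untreated cells and between 33.97 ± 1.53 (N_Omt) and 48.2 ± 4.17 CPM (N_Mac) with the removals. EPB41L4A-AS1 rose by 1.53 ± 0.10, 1.35 ± 0.11, 1.01 ± 0.11 and 1.40 ± 0.11, and SNHG12 by 0.91 ± 0.08, 0.85 ± 0.08, 0.90 ± 0.08 and 0.88 ± 0.08, in the same order. The 4 values of SNHG12 lay between 0.85 and 0.91. Each SE here is that of a comparison with the shared untreated libraries, not of a difference between removals.

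SNHG7 was lower than in untreated cells with N_Mac, N_Nme and N_Tri, where most of the other hosts were higher. It was at 42.7, 44.4 and 44.3 CPM in untreated cells and fell to 24.3, 25.1 and 22.7 CPM with N_Mac, 25.5, 25.96 and 28.1 CPM with N_Nme and 31.4, 33.8 and 34.1 CPM with N_Tri, with no overlap. SNHG7 changed by -0.85 ± 0.06 with N_Mac (adjusted p = 3.21e-14), -0.74 ± 0.06 with N_Nme (adjusted p = 7.59e-13) and -0.44 ± 0.06 with N_Tri (adjusted p = 5.18e-08). With N_Omt it was at 47.1, 44.1 and 46.7 CPM, 0.07 ± 0.06 on the log2 scale (adjusted p = 0.252). SNHG1 likewise had its highest value with N_Omt, at 118, 120.1 and 121 CPM (1.08 ± 0.05), while it was at 59.00, 57.3 and 64.01 CPM with N_Mac (0.10 ± 0.06, adjusted p = 0.0875) and rose by 0.30 ± 0.05 with N_Nme and 0.23 ± 0.05 with N_Tri. SNHG5 had its larger rises with N_Nme (452, 445 and 451 CPM, 0.97 ± 0.06) and N_Tri (0.87 ± 0.06), and its smaller ones with N_Omt (0.58 ± 0.06) and N_Mac (0.39 ± 0.06). SNHG15 rose with N_Mac (0.38 ± 0.11) and N_Omt (0.65 ± 0.10), and its values with N_Nme (0.03 ± 0.11) and N_Tri (-0.17 ± 0.11) did not pass the test. SNHG6 rose by between 0.16 (N_Nme) and 0.67 (N_Omt) and SNHG8 by between 0.29 (N_Omt) and 0.69 (N_Tri). Differences between the removals themselves were not tested. In a fit of all 54 libraries, SNHG15 with N_Mac, SNHG1 and SNHG6 with N_Nme, SNHG8 with N_Omt, and SNHG1 and SNHG7 with N_Tri did not pass edgeR's test against untreated cells (adjusted p from 0.0726 to 0.292). Untreated replicate 2 had the lowest and replicate 3 the highest level of GAS5, ZFAS1, SNHG8 and EPB41L4A-AS1 among the 3 untreated libraries of batch 2. Without replicate 2, SNHG6 with N_Nme (0.14, adjusted p = 0.0508) and SNHG8 with N_Omt (0.15, adjusted p = 0.0650) did not pass. The SNHG8 value was 0.47 without untreated replicate 3, and that of SNHG15 with N_Mac was 0.25 without untreated replicate 2 and 0.25 without N_Mac replicate 1.

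Set against CKI rather than untreated cells, the mixtures were higher in nearly every transcript. At 48 h all 10 were higher with each of the 4 mixtures of batch 1 and each of the 4 single removals, 80 calls of 80. Of all genes tested, 36.0% were higher than with CKI for N-OmtOspc, 33.1% for N-MacOmtOspc, 25.9% for OO and 24.0% for MOO. In batch 2 these shares were 35.1% for N_Mac, 35.8% for N_Nme, 37.1% for N_Omt and 34.5% for N_Tri. ZFAS1 had the largest difference in each of these 8 comparisons, from 4.97-fold with MOO to 12.8-fold with N_Omt (log2 2.31 ± 0.14 and 3.67 ± 0.09). GAS5 followed with 4.48-fold to 9.41-fold. The smallest differences were those of SNHG7 with N_Mac (0.29 ± 0.06, adjusted p = 0.000201) and N_Nme (0.40 ± 0.06). Both were lost in a fit of all 54 libraries (0.28, adjusted p = 0.333, and 0.42, adjusted p = 0.129, by edgeR). Scaled by library totals alone, 4082 genes were higher and 6326 lower with N-MacOmtOspc than with CKI at 48 h, rather than 5139 and 5293, and all 10 hosts stayed higher. The comparisons with CKI and with untreated cells share their mixture libraries, so they are not independent of each other.

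At 24 h, 9 transcripts were higher than with CKI for N-OmtOspc, 10 for N-MacOmtOspc, 6 for OO and 6 for MOO, against 29.2%, 17.6%, 4.47% and 6.02% of all genes tested. Without the 3 libraries that stood apart, the counts were 9, 10, 6 and 7, where 4815, 3291, 905 and 1157 of 15424 genes were higher. Scaled by library totals alone the counts of hosts were 9, 10, 5 and 5. Then 2745 of all genes were higher and 6623 lower with N-OmtOspc, rather than 4435 and 4487. With MOO the numbers were 687 and 1020, rather than 915 and 846. ZFAS1 was 5.81-fold and 6.95-fold higher with N-OmtOspc and N-MacOmtOspc, and 2.24-fold and 2.17-fold higher with OO and MOO. GAS5, SNHG1, SNHG5 and SNHG8 were higher with all 4 mixtures too, SNHG8 by 1.05 ± 0.16 with OO (adjusted p = 0.000721) and 1.15 ± 0.16 with MOO (adjusted p = 0.000301). SNHG12 was the exception for N-OmtOspc, at -0.04 ± 0.22 on the log2 scale (adjusted p = 0.879). Several calls for OO and MOO rested on single libraries. Without CKI replicate 2 only 2 of the 10 were called for OO, with GAS5 at 1.11 (adjusted p = 0.0512) and SNHG1 at 0.61 (adjusted p = 0.0547), and SNHG1 was lost for MOO too (0.56). SNHG5 was lost for OO without CKI replicate 1 or 2 or OO replicate 1 or 3 (0.32 without OO replicate 1) and for MOO without MOO replicate 1 (0.61). SNHG12 was lost for OO in 5 of the 6 comparisons that left out 1 library, the exception being CKI replicate 1 (adjusted p from 0.0756 to 0.160), and SNHG15 for MOO in all 6 (from 0.0713 to 0.119).

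Whether the effect of a mixture differed between 24 and 48 h was tested as the difference of its effects, in 1 fit over the 36 libraries of batch 1. For OO, 5 transcripts had a more positive effect at 48 h, against 3.23% of all genes, and these were GAS5 (1.36 ± 0.33, adjusted p = 0.00793), ZFAS1 (1.34 ± 0.29), EPB41L4A-AS1 (1.54 ± 0.34), SNHG15 (1.28 ± 0.33) and SNHG8 (1.24 ± 0.27). The log2 fold change of SNHG15 against untreated cells was -0.59 at 24 h and 0.67 at 48 h, and that of SNHG8 -0.21 and 1.00. Both thus had values of opposite sign, while those of the other 3 were positive at both times. None of the 24 h values passed the test. The 5 calls of a difference with time were kept without each of the 12 libraries compared. Without the 3 libraries that stood apart 6 were made, where 771 of 16068 genes had a more positive effect at 48 h. For N-OmtOspc, 3 had a more positive effect at 48 h, against 15.5% of all genes. SNHG12 led them (1.88 ± 0.40, adjusted p = 0.000483), with mean levels of 11.97 CPM at 24 h and 32.4 CPM at 48 h, while untreated cells were at 16.2 and 11.9 CPM. GAS5 (1.17 ± 0.33, adjusted p = 0.00593) and SNHG8 (0.72 ± 0.27, adjusted p = 0.0397) were the others. SNHG12 (-0.39 and 1.47) and SNHG8 (-0.27 and 0.42) had values of opposite sign at 24 and 48 h, though neither 24 h value passed the test. With libraries scaled by their totals alone, 7 transcripts rather than 3 were called for N-OmtOspc, and 4879 of all genes had a more positive and 1317 a more negative effect at 48 h, rather than 2458 and 2973. The same scaling gave 637 and 592 for OO (rather than 512 and 766), 200 and 163 for MOO (161 and 249), 223 and 996 for N-MacOmtOspc (373 and 793) and 28 and 17 for CKI (28 and 34), with the number of hosts called as before. SNHG8 kept its call in 2 of the 12 comparisons that left out 1 library, those without untreated replicate 3 or N-OmtOspc replicate 3 at 24 h (adjusted p from 0.0506 to 0.107 in the other 10), and 6 transcripts were called without N-OmtOspc replicate 3 at 24 h.

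For MOO only ZFAS1 passed (1.08 ± 0.29, adjusted p = 0.0410), against 1.02% of all genes, and it missed the threshold without any of the 12 libraries (adjusted p from 0.0616 to 0.0990). DESeq2 called 4 transcripts for MOO, where it called 742 of all 15858 genes. The edgeR test without the 3 libraries that stood apart also called 4, where 1386 of 16068 genes were called, rather than 410. For N-MacOmtOspc none passed edgeR's test, with 1 at an unadjusted p-value under 0.05 and 1 called by DESeq2, where 7.35% of all genes were called. The largest value there was that of SNHG1 (0.79 ± 0.25, adjusted p = 0.0545). Without N-MacOmtOspc replicate 2 at 48 h, 2 were called, and without the 3 libraries that stood apart, 1. Of all genes, 2281 of 16068 were called without those 3 libraries. For CKI none passed, none had an unadjusted p-value under 0.05 and DESeq2 called none, where 0.391% of all genes were called, and the differences were between -0.12 (ZFAS1) and 0.41 (SNHG1). In untreated cells no transcript differed between 24 and 48 h by edgeR's test or by DESeq2, and 1 had an unadjusted p-value under 0.05 (SNHG1, -0.56 ± 0.18, adjusted p = 0.0980), where 1.57% of all genes were called.

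The effect of CKI at 48 h was more negative in batch 2 than in batch 1 for 6 transcripts, against 7.20% of all genes with a more negative effect in batch 2. ZFAS1 had the largest difference (-0.98 ± 0.14, adjusted p = 4.77e-05), followed by GAS5 (-0.67 ± 0.15), EPB41L4A-AS1 (-0.64 ± 0.21), SNHG12 (-0.50 ± 0.15), SNHG1 (-0.49 ± 0.10) and SNHG5 (-0.37 ± 0.09). The same 6 were higher in the untreated cells of batch 2 than in those of batch 1, ZFAS1 by 0.72 ± 0.09, SNHG12 by 0.47 ± 0.10, SNHG1 by 0.43 ± 0.06, GAS5 by 0.41 ± 0.10, EPB41L4A-AS1 by 0.34 ± 0.14 and SNHG5 by 0.26 ± 0.06. Both comparisons use the same untreated libraries. In all, 9 of the 10 differed between the untreated cells of the batches, SNHG8 also being higher (0.42) and SNHG6 (-0.22) and SNHG7 (-0.54) lower, where 60.5% of all genes were called. For SNHG6 the difference of the CKI effect was 0.05 ± 0.09 (adjusted p = 0.752). Without untreated replicate 3 of batch 2 the batch difference of the untreated level was 0.09 for EPB41L4A-AS1 (adjusted p = 0.528), 0.22 for GAS5 and 0.24 for SNHG8. Without any untreated library of batch 1 EPB41L4A-AS1 missed the threshold there too (adjusted p from 0.0689 to 0.121). The difference of the CKI effect missed it for EPB41L4A-AS1 without any of the 12 libraries other than untreated replicates 1 and 2 of batch 2 (adjusted p from 0.0528 to 0.142, -0.39 without untreated replicate 3 of batch 2). For SNHG12 it missed without untreated replicate 1 or 2 or CKI replicate 2 or 3 of batch 1, untreated replicate 3 of batch 2 or CKI replicate 2 or 3 of batch 2 (adjusted p from 0.0626 to 0.0946).

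**Figure D3:**
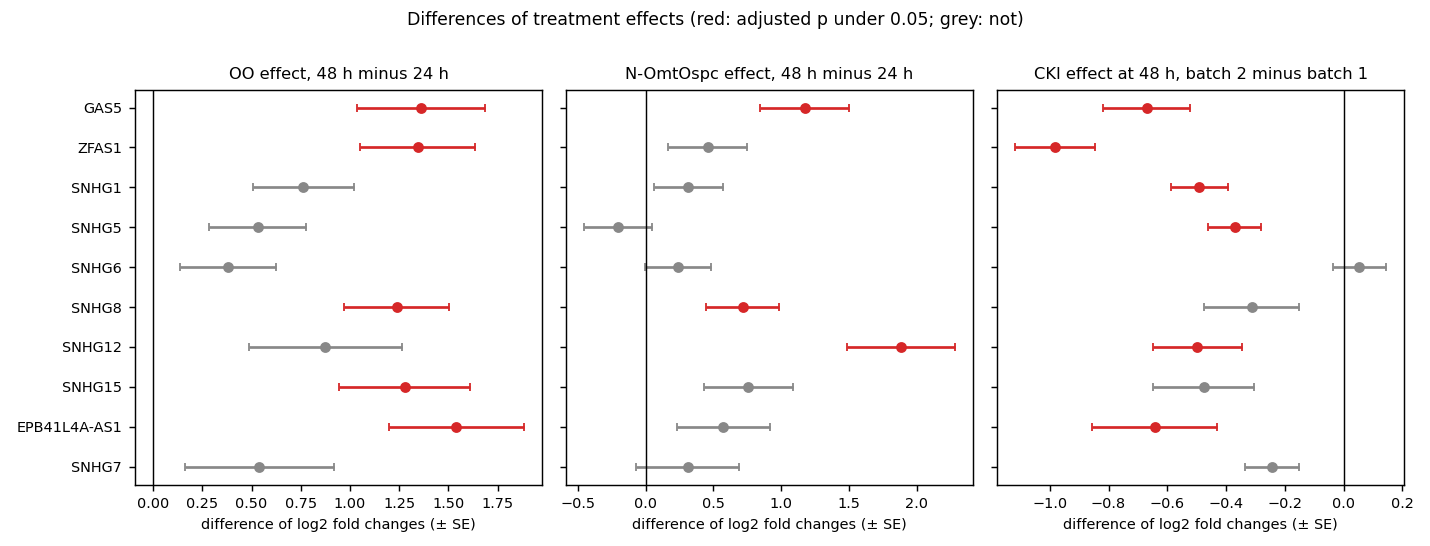
Differences of treatment effects for each transcript, with points at the difference of log2 fold changes and bars of 1 SE. The left and middle panels give the effect at 48 h minus that at 24 h for OO and N-OmtOspc, and the right panel gives the CKI effect in batch 2 minus that in batch 1, with red for an adjusted p-value under 0.05 and ZFAS1 at -0.98 on the right.

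Across the 18 group means of log2 CPM, centred within each time and batch, the transcripts moved together to different degrees. GAS5 and ZFAS1 were the most alike pair, with a Pearson correlation of 0.983, and SNHG7 and SNHG12 the least alike, with 0.371, while the median of the 45 pairs was 0.857. The pairs share libraries and treatments, so these values are a description. Against the mean of the 10, the nearest other genes among 9785 with a mean of at least 10 CPM were ALKBH3 (0.969), a demethylase of alkylated bases, E2F5 (0.966), a repressor of the E2F family, LRRC8D (0.965), a subunit of volume-regulated anion channels, UTP25 (0.964), a factor of small ribosomal subunit assembly, and GPCPD1 (0.962), a phosphodiesterase of glycerophosphocholine.

 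Genes related to the hosts by class were described by their counts. Of 12 further noncoding hosts, 11 were tested in each treatment comparison. With CKI 5, 4 and 8 were lower at 24 h, at 48 h in batch 1 and at 48 h in batch 2. Their medians were -0.41, -0.40 and -0.72. Of all genes tested, 14.8%, 27.0% and 34.2% were lower with CKI in these sets. Higher were 2320 of 15191, 4194 of 15513 and 4878 of 15115. These shares stand beside the CKI counts of each list that follows. SNHG3 (-1.003 ± 0.23, -0.92 ± 0.20 and -1.16 ± 0.06) and SNHG11 (-1.005 ± 0.30, -0.57 ± 0.16 and -0.94 ± 0.13) fell in all 3 sets. SNHG18 rose at 48 h in batch 1 (0.30 ± 0.09), and its values in the other sets (-0.10 and -0.05) did not pass the test. SNHG20 was at 0.08, 0.34 and -0.50, none of them called. With the mixtures at 48 h these hosts split, 7 of 11 being higher and 2 lower with N_Omt, and 1 higher and 2 lower with N_Tri. Of all 15115 genes tested, 5802 were higher and 6025 lower with N_Omt, and 5259 and 5655 with N_Tri.

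Protein-coding genes that carry snoRNAs in their introns, mostly ribosomal proteins and translation factors, fell with CKI in 17, 26 and 27 of 28 tested (medians -0.49, -0.59 and -0.76). RPL10 changed by -1.15 ± 0.15, -1.34 ± 0.08 and -1.55 ± 0.08 and RPL13A by -1.31 ± 0.19, -0.99 ± 0.10 and -1.23 ± 0.08, both proteins of the large ribosomal subunit. RPL17 was at 0.00, 0.06 and 0.03, and RPL23A fell only at 48 h in batch 2 (-0.31 ± 0.07). With the mixtures at 48 h the coding hosts moved both ways, with medians between -0.16 (N-OmtOspc) and 0.25 (N-MacOmtOspc). Their counts were 6 higher and 14 lower with the first, and 16 higher and 5 lower with the second. Of all 15513 genes tested, 5935 were higher and 5948 lower with N-OmtOspc, and 5551 and 5479 with N-MacOmtOspc. Of other coding mRNAs with a pyrimidine start, 7, 12 and 13 of 13 fell with CKI. HNRNPA1 (-1.30, -0.98 and -1.28) and EEF1A1 (-0.47, -0.54 and -0.88) had the lowest means over the 3 sets. EIF4B fell in both 48 h sets (-0.37 and -0.25) and EEF1D in batch 2 (-0.19). With the mixtures at 48 h the medians of these 13 lay between -0.21 (N-OmtOspc) and 0.20 (N-MacOmtOspc).

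Coding mRNAs known as substrates of nonsense-mediated decay were higher with the mixtures at 48 h. With N-OmtOspc, N-MacOmtOspc, OO and MOO 7, 8, 8 and 8 of 8 were higher, against 38.3%, 35.8%, 29.1% and 25.7% of all genes. With N_Mac, N_Nme, N_Omt and N_Tri 6, 7, 7 and 6 were higher, against 36.9%, 35.9%, 38.4% and 34.8%. The list holds ATF4, whose targets form a further list below, so the 2 lists are not independent. Decay itself was not measured. At 24 h 3 and 5 of these mRNAs were higher with OO and MOO, against 1371 and 852 of 15191 genes. In that fit none of the 10 hosts was higher with either. With CKI they moved both ways, 3 being higher and 1 lower at 24 h, 2 and 1 at 48 h in batch 1, and 0 and 6 in batch 2. ATF3, a stress-induced transcription factor, rose at 24 h (1.71 ± 0.43) and at 48 h in batch 1 (0.80 ± 0.13), and gave -0.22 ± 0.11 in batch 2. ATF4, the transcription factor at the centre of the integrated stress response, fell in all 3 sets (-0.48, -0.38 and -0.40), DDIT3 only in batch 2 (-0.91), and CARS rose slightly in batch 1 (0.43 at 24 h and 0.14 at 48 h). Of the targets of ATF4, 2, 1 and 1 of 10 rose and 0, 6 and 7 fell with CKI, and 8 rose with OO, MOO, N-OmtOspc and N-MacOmtOspc alike at 48 h. SLC7A11, the cystine transporter subunit, rose with CKI in each set (2.46, 1.12 and 0.92), whereas PHGDH (-1.29 and -1.14) and NUPR1 (-0.68 and -1.36) fell in both 48 h sets and ASNS passed in none. Genes of proliferation fell with CKI (8, 12 and 12 of 12) and with every mixture at 48 h (all 12). In the single mixture comparisons at 48 h, 3951 to 5948 of 15513 genes were lower in batch 1 and 5352 to 6025 of 15115 in batch 2. With CKI in batch 2 the mitotic genes PLK1 and CCNB1 changed by -2.22 and -1.92, the checkpoint kinase gene BUB1 by -0.74 and PCNA, the replication clamp, by -0.22. Their medians at 48 h were between -4.11 (N_Omt) and -0.82 (CKI in batch 1), so that they fell both where the 10 hosts fell and where the hosts rose. Their part in the host levels was not tested.

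**Figure D4:**
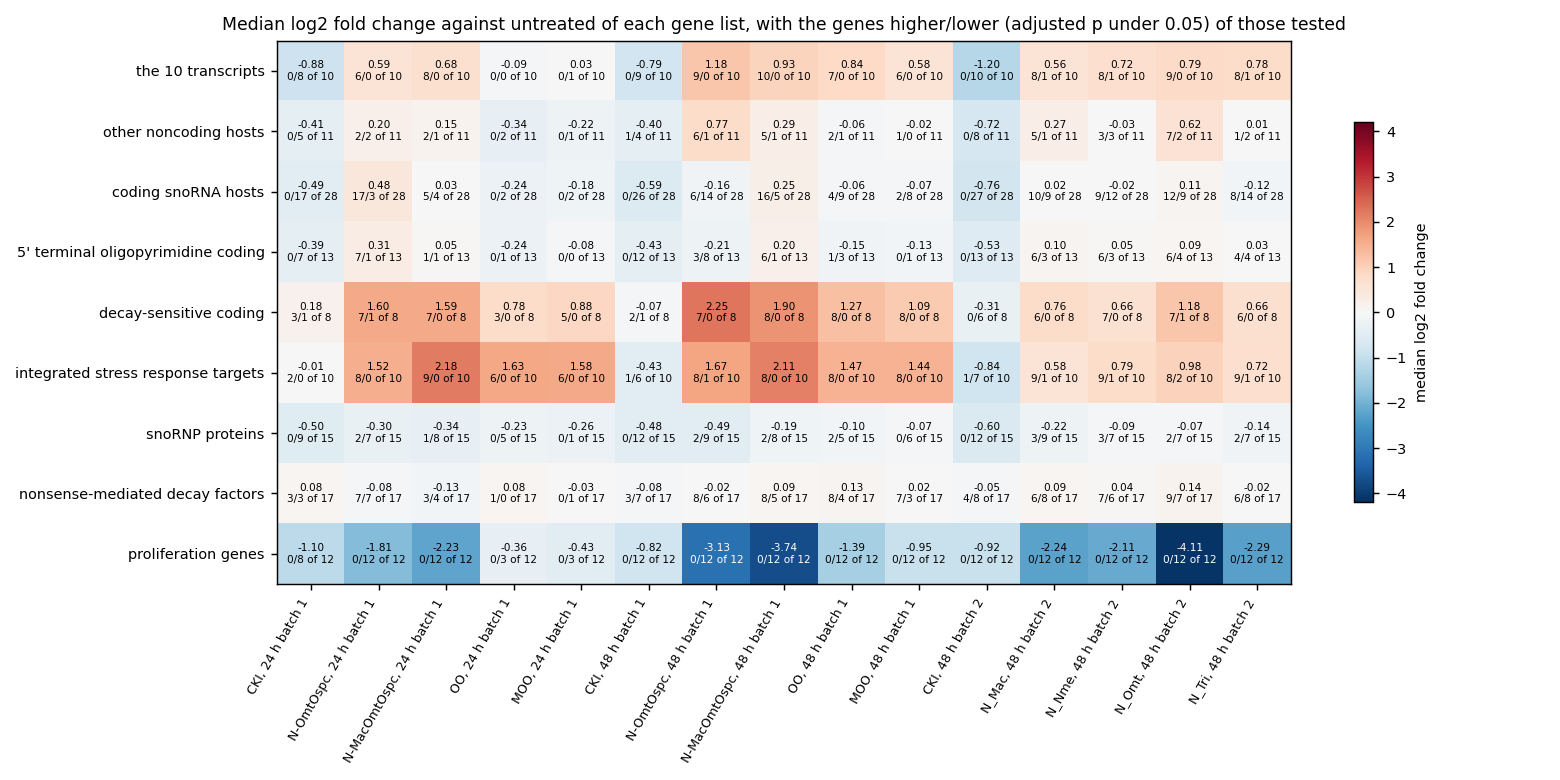
Median log2 fold change against untreated cells of each gene list (rows) in each treatment (columns), with the genes called higher and lower of those tested written in each cell. The top row, the 10 noncoding hosts, is negative for the 3 CKI columns and between 0.56 and 1.18 for all 8 mixture columns at 48 h, while the proliferation genes are negative in every column.

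The snoRNAs carried by the 10 hosts were hardly counted in these libraries, which were made from polyadenylated RNA, while mature snoRNAs have no poly(A) tail. Of 35 looked for, 33 were in the table and between 10 and 15 had enough counts to be tested in a treatment comparison, with group means of at most 1.61 CPM (SNORD31 with N-OmtOspc at 48 h). With CKI 3, 0 and 3 of 11, 10 and 15 were lower and none higher. SNORD22 of SNHG1 fell at 24 h (-1.97 ± 0.51) and at 48 h in batch 2 (-0.998 ± 0.35), and SNORD76 of GAS5 in batch 2 (-1.30 ± 0.50). For SNORA16A and SNORD99 of SNHG12, a host with a small change in batch 1, the values in batch 2 were -0.01 ± 0.31 and 0.11 ± 0.42. With N-OmtOspc at 24 h, where 6 hosts rose, 5 of 11 snoRNAs were lower and none higher. At 48 h 3 of 10 were higher with N-OmtOspc and 6 of 15 with N_Omt, and none lower. Of all genes, 4699 of 15191 were lower in the first comparison, and 5935 of 15513 and 5802 of 15115 higher in the others. The other mixtures gave at most 1 call in either direction against untreated cells. Reads on a snoRNA can also come from unspliced host RNA, and the 2 cannot be told apart here.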

How the data were processed

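RNA-seq was made from MDA-MB-231 cells in 54 libraries, 18 groups of 3 biological replicates, with oligo(dT) selection, a strand-specific kit and paired reads. The deposited values are raw counts per gene symbol, which the authors made from reads aligned to hg19. The submitters' processing notes name FastQC 0.11.4, Trim Galore 0.3.7, STAR 2.5.3a, Subread 1.5.2, featureCounts and edgeR 3.22.3. The strand setting of the counting is not given in the sources used here. Without strand the reads of ZFAS1, SNHG12 and EPB41L4A-AS1 could not be told from those of their antisense neighbours ZNFX1, TRNAU1AP and EPB41L4A. SNHG7, typed as antisense in GENCODE v29 as ZFAS1 and SNHG12 are, may share this limit, and no neighbour of it was looked at.

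Groups came from the sample titles. The members and lists were chosen with earlier results of these data known. The text names all 10 members and, of each further list, the pair of genes with the highest and the pair with the lowest mean log2 fold change over the 3 CKI comparisons. Counts were scaled by TMM and filtered with filterByExpr, and fitted with edgeR 4.0.16 in R 4.3.3 by the quasi-likelihood test, with Benjamini-Hochberg adjustment over all genes tested and a threshold of 0.05. Each time and batch was fitted on its own (18 libraries, between 15115 and 15513 genes). Changes of effect with time used the 36 libraries of batch 1, and those with batch the 12 untreated and CKI libraries at 48 h. CPM levels were scaled by TMM over all 54 libraries. The biological coefficient of variation was 0.175 at 24 h, 0.0763 at 48 h in batch 1 and 0.0480 in batch 2, so that smaller changes could pass at 48 h. The test was tried on simulated counts first. Alternatives were DESeq2 1.42.0, RLE and library-size scaling, other filters, other sets of libraries, a replicate block and each library left out. Start-site sequences came from RefSeq (GRCh38.p14), which differs from the build of the counts, and 8 of the 10 members matched by symbol.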

Additional observations from a re-analysis of the deposited data

Results flagged for a closer look

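The results here are those in which the same treatment had different effects at 2 times or in 2 batches, by the interaction term of edgeR's quasi-likelihood fit with Benjamini-Hochberg adjustment, and all are differences of log2 fold changes. The effect of OO was more positive at 48 than at 24 h for EPB41L4A-AS1 (1.541, adjusted p = 0.00407), GAS5 (1.36, adjusted p = 0.00793), ZFAS1 (1.345, adjusted p = 0.0034), SNHG15 (1.279, adjusted p = 0.0141) and SNHG8 (1.236, adjusted p = 0.00339). That of N-OmtOspc was more positive at 48 h for SNHG12 (1.884, adjusted p = 0.000483), GAS5 (1.174, adjusted p = 0.00593) and SNHG8 (0.7154, adjusted p = 0.0397). That of MOO was more positive at 48 h for ZFAS1 (1.079, adjusted p = 0.041). This call was lost whichever of the 12 libraries compared was left out. The call of SNHG8 with N-OmtOspc was lost in most fits with 1 library left out. Of all genes tested, 3.23%, 15.5% and 1.02% had a more positive effect at 48 h with OO, N-OmtOspc and MOO.

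The CKI effect at 48 h was more negative in batch 2 than in batch 1 for ZFAS1 (-0.9815, adjusted p = 4.77e-05), GAS5 (-0.6709, adjusted p = 0.0046), EPB41L4A-AS1 (-0.6433, adjusted p = 0.0472), SNHG12 (-0.4981, adjusted p = 0.0314), SNHG1 (-0.4907, adjusted p = 0.00159) and SNHG5 (-0.3714, adjusted p = 0.00919). Untreated levels of these 6 transcripts also differed between the batches, and the part of that difference in the CKI effect was not tested. The calls of EPB41L4A-AS1 and SNHG12 were lost in most fits with 1 library left out. Of all genes tested, 7.20% had a more negative effect in batch 2.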

How the results depend on the processing

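No called value of the 10 transcripts changed direction under any alternative, library-size scaling included, which moved the median of all genes by -0.36 to 0.35. Only values called in the main fit were followed in the next counts. Over the alternatives other than leaving out single libraries, 2084 of 2191 values stayed called and 107 did not. With 1 library left out 1445 of 1560 stayed called and 115 did not. Values that passed only under an alternative are not in these counts. With an added limit of 1 on the size of the log2 fold change, 4 transcripts were called for CKI at 24 h, 3 for CKI at 48 h in batch 1, 5 for the mixtures against untreated cells at 24 h, 20 at 48 h and 13 for the single removals, since a fold limit removes small changes. At that limit 748 of 15191 genes were lower with CKI at 24 h and 702 of 15513 at 48 h in batch 1, and 250 to 2646 of 15191, 868 to 2902 of 15513 and 1072 to 1808 of 15115 were higher in the single comparisons of the other 3 kinds. With only the 2 groups compared in each fit, 23 calls rather than 15 were made for the mixtures against untreated cells at 24 h. Most of the added ones were with MOO, where 5097 of 14249 genes were called rather than 1588 of 15191, and the cause was not tested. DESeq2 called 14 changes of effect with time rather than 9. Without the 3 libraries that carry no number 15 were called, and 1 transcript differed with time in untreated cells. Calls over all genes rose too. DESeq2 gave 1677 for OO, 742 for MOO and 703 for untreated cells, where the main fit gave 1278, 410 and 249 of 15858. Without the 3 libraries the numbers were 2194, 1386 and 1346 of 16068. The causes were not tested.

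With 1 library left out, CKI gave 5 to 8 calls at 24 h, 8 to 9 at 48 h in batch 1 and 10 to 10 in batch 2. The mixtures gave 10 to 17 calls against untreated cells and 25 to 32 against CKI at 24 h, 30 to 32 and 40 to 40 at 48 h, and the single removals gave 35 to 37 and 40 to 40. Changes of effect with time numbered 7 to 12, differences of the CKI effect between batches 4 to 8, differences of untreated cells between batches 8 to 10, and between times 0 to 0. Of 45 pairs of same-numbered libraries per set, 17, 8 and 5 correlated above 0.1 in their deviations from the group means (medians -0.05, -0.02 and 0.02). At 24 h the correlations ran from -0.72 to 0.72. Libraries with different numbers were not compared in this way, so whether the numbers pair the libraries cannot be told from these values. With the replicate block, CKI gave 8, 9 and 10 calls, the mixtures 14 and 30 at 24 h and 32 and 40 at 48 h against untreated cells and CKI, and the single removals 36 and 40. In total 219 of 221 calls were kept with the block, the exceptions being SNHG1 with MOO against untreated cells and SNHG12 with OO against CKI, both at 24 h.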

Other observations

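The mRNAs of 15 proteins that assemble with snoRNAs were tested with CKI, and protein levels were not measured. At 24 h, at 48 h in batch 1 and at 48 h in batch 2, 9, 12 and 12 were lower and none higher. Of all genes tested, 14.8%, 27.0% and 34.2% were lower in these comparisons. The medians were -0.50, -0.48 and -0.60 on the log2 scale. NOP56, a core protein of box C/D particles, changed by -0.91 ± 0.15, -0.66 ± 0.09 and -0.94 ± 0.05, and NHP2, a core protein of H/ACA particles, by -0.84 ± 0.21, -0.69 ± 0.08 and -1.02 ± 0.06, all of which passed edgeR's test. NOP10 (0.05, -0.02 and -0.05) and SHQ1 (0.33, 0.13 and 0.11) passed in none. Most of the noncoding hosts rose with the mixtures at 48 h. Of these 15 mRNAs, 2 were higher and 9 lower with N-OmtOspc, 2 and 5 with OO, and 2 and 7 with N_Omt. Of all genes tested, 5935 of 15513 were higher and 5948 lower with N-OmtOspc. The numbers were 4519 and 4451 of 15513 with OO, and 5802 and 6025 of 15115 with N_Omt.

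The mRNAs of 17 factors of nonsense-mediated decay moved both ways. With CKI 3 were higher and 3 lower at 24 h, 3 and 7 at 48 h in batch 1 and 4 and 8 in batch 2. Of all genes tested, 2320 of 15191 were higher and 2242 lower at 24 h. At 48 h the numbers were 4194 and 4183 of 15513 in batch 1 and 4878 and 5162 of 15115 in batch 2. UPF2, a core factor, rose in each set (0.47, 0.25 and 0.25) and SMG5 in both 48 h sets (0.46 and 0.38), while MAGOH, a part of the exon junction complex, fell in each (-0.39, -0.65 and -0.61) and SMG9 in both 48 h sets (-0.34 and -0.43).

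Of 6 coding genes beside the hosts, 0, 2 and 3 fell with CKI and none rose. The shares of all genes tested that fell were 14.8%, 27.0% and 34.2%. ZNFX1, beside ZFAS1, gave 0.27 ± 0.20, -0.01 ± 0.07 and -0.07 ± 0.05, where ZFAS1 fell in every set. TRNAU1AP, beside SNHG12, gave -0.20 ± 0.12, 0.16 ± 0.10 and 0.07 ± 0.07, and neither ZNFX1 nor TRNAU1AP passed the test for CKI in any set. EPB41L4A, beside EPB41L4A-AS1, fell in batch 2 (-0.45 ± 0.15), and PRSS12, beside SNHG8, in both 48 h sets (-0.78 ± 0.10 and -1.19 ± 0.08). At 48 h, 3, 3, 3 and 2 of the 6 were higher with N-OmtOspc, N-MacOmtOspc, OO and MOO. Lower were 2, 2, 1 and 1. Of all genes, 38.3%, 35.8%, 29.1% and 25.7% were higher. With N_Mac, N_Nme, N_Omt and N_Tri 5, 4, 4 and 3 were higher and 1, 1, 1 and 3 lower. Here 36.9%, 35.9%, 38.4% and 34.8% of all genes were higher. In these comparisons 3951 to 5948 of 15513 genes were lower in batch 1 and 5352 to 6025 of 15115 in batch 2.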
